A study of Oryza sativa with 6 samples.

Results

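The Aux/IAA repressors and the auxin response factors (ARF) are the nuclear core of the auxin response, and their mRNA was compared here between leaves of the transgenic rice line KMD and of its parent. Members were the probe sets that the platform annotation assigns to 1 gene named IAA1 to IAA31 or ARF1 to ARF25, with or without the prefix Os. They numbered 54 of the 57381 probe sets on the array and stood for 43 of the 17905 annotated genes. Of these, 34 probe sets belonged to 26 Aux/IAA genes and 20 to 17 ARF genes. IAA11, IAA29, ARF5, ARF6, ARF8, ARF19, ARF21 and ARF25 were found as genes but had no probe set assigned to them alone, and IAA22, IAA27, IAA28, ARF11 and ARF20 matched no gene by name. In the annotation, 8 member genes carried a second member number, and each is called here by the number left to it by elimination.

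The series measured leaves of 30-day seedlings on Affymetrix rice arrays, with 3 arrays of KMD and 3 of wildtype XS11. Both lines are of the cultivar Xiushui 11, and all seedlings were grown in pots in the same kind of climate chamber, at 30 °C in 16 h of light and 26 °C in 8 h of dark. From general knowledge, and not from the labels, KMD makes the insecticidal protein Cry1Ab from a transgene under a maize ubiquitin promoter, next to marker genes. It is 1 transgenic line, so the transgene and anything else that sets this line apart from its parent cannot be told apart. The series set out to look for a molecular basis of side effects in KMD among genes whose expression differs.

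Auxin works in the nucleus by removing repressors. ARF proteins bind auxin response elements in promoters, and Aux/IAA proteins bind to ARFs and recruit TOPLESS-related co-repressors that keep those genes off. When auxin is present, it joins Aux/IAA proteins to the F-box receptors TIR1/AFB, the repressors are degraded, and the ARFs are set free; many Aux/IAA genes are themselves auxin-induced targets of this switch. In rice leaves and shoots the pathway shapes leaf angle, vein pattern and tillering.

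Among the members bright enough to be tested, most genes of both families were lower in KMD than in XS11. After quantile normalization the median difference was still negative in both, at -0.23 for Aux/IAA and -0.39 for ARF. Centring the arrays on their medians gave -0.30 and -0.46, close to the -0.30 and -0.45 found without any of these steps. Centring on spike-in controls lowered every gene, so it could not have turned a negative median. The 9 Aux/IAA genes under the signal filter did not share the fall of the tested members and are described separately. Values are MAS5 intensities, and a difference is KMD minus XS11 on the scale log2(intensity + 11.17), the added 11.17 being the 10th percentile of the whole table. This scale understates the change of dim probe sets. A gene was called where limma gave an adjusted p under 0.05 over the 34404 probe sets in the upper 60% of mean signal, and each gene was read by its brightest probe set. Of the 17 tested Aux/IAA genes, 12 were lower, 3 higher and 2 not called, with a median difference of -0.30 and a range from -1.06 to 0.33. Of the 16 tested ARF genes, 11 were lower, 1 higher and 4 not called, with a median of -0.45 and a range from -0.71 to 0.51.

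These counts stand against a high background. Over all tested probe sets 39.7% were called, 21.6% lower and 18.1% higher, with a median difference of 0.0. Read in the same way as the members, by the brightest probe set, 56.2% of 14790 genes were called, 33.0% lower and 23.2% higher, with a median of -0.03. Among the tested Aux/IAA genes 70.6% were lower and 17.6% higher, and among the tested ARF genes 68.8% were lower and 6.25% higher. The arrays of the lines did not overlap for 15 Aux/IAA genes (88.2%) and 12 ARF genes (75.0%), against 48.8% of all tested probe sets and 65.6% of all genes read by their brightest probe set. No test was made over the members, which were chosen with earlier results of these data known.

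**Figure D1:**
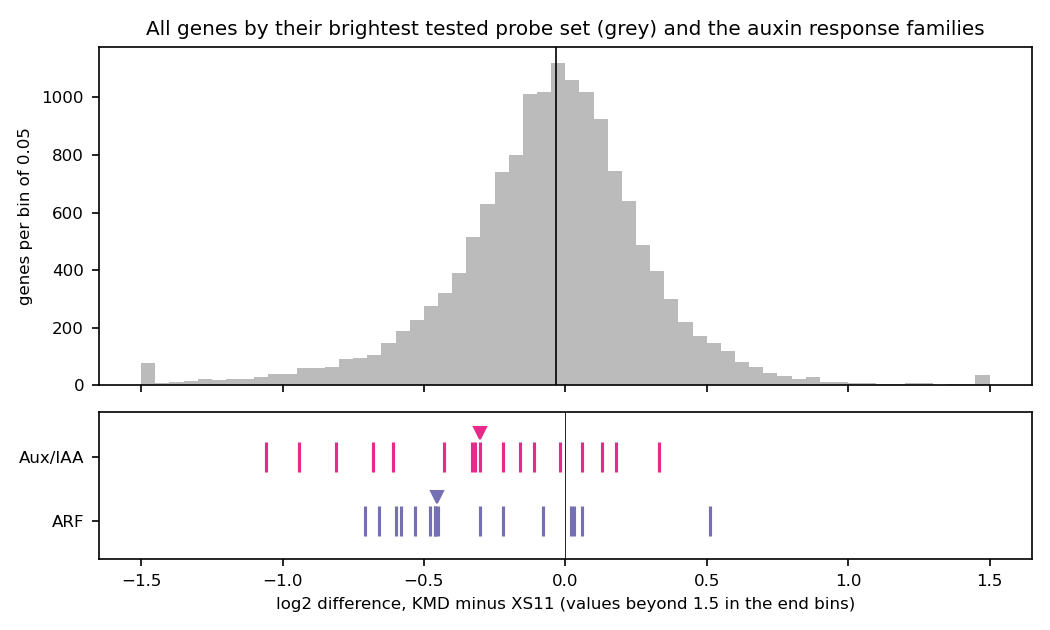
Top, the number of genes (vertical axis) by log2 difference, KMD minus XS11 (horizontal axis), for all 14790 genes read by their brightest tested probe set, with a line at the median of -0.03. Below, each tick is 1 tested gene of a family and the triangle its median, -0.30 for Aux/IAA and -0.45 for ARF; most ticks lie left of 0.

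The families differed in the absolute sizes of their called changes. Aux/IAA genes held both the larger falls and more of the small differences, with called changes from 0.11 to 1.06 in absolute size and 5 of them at 0.5 or more. Called ARF genes lay closer together in absolute size, from 0.22 to 0.71, with 6 at 0.5 or more. With the sign kept, tested genes ranged from -1.06 to 0.33 for Aux/IAA and from -0.71 to 0.51 for ARF. When limma tested against a change of 1.2-fold, 5 of 17 Aux/IAA genes and 9 of 16 ARF genes passed, against 17.6% of all genes by their brightest probe set and 11.9% of all tested probe sets. The difference between the families was not tested, because their members are not replicates of a condition.

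**Figure D2:**
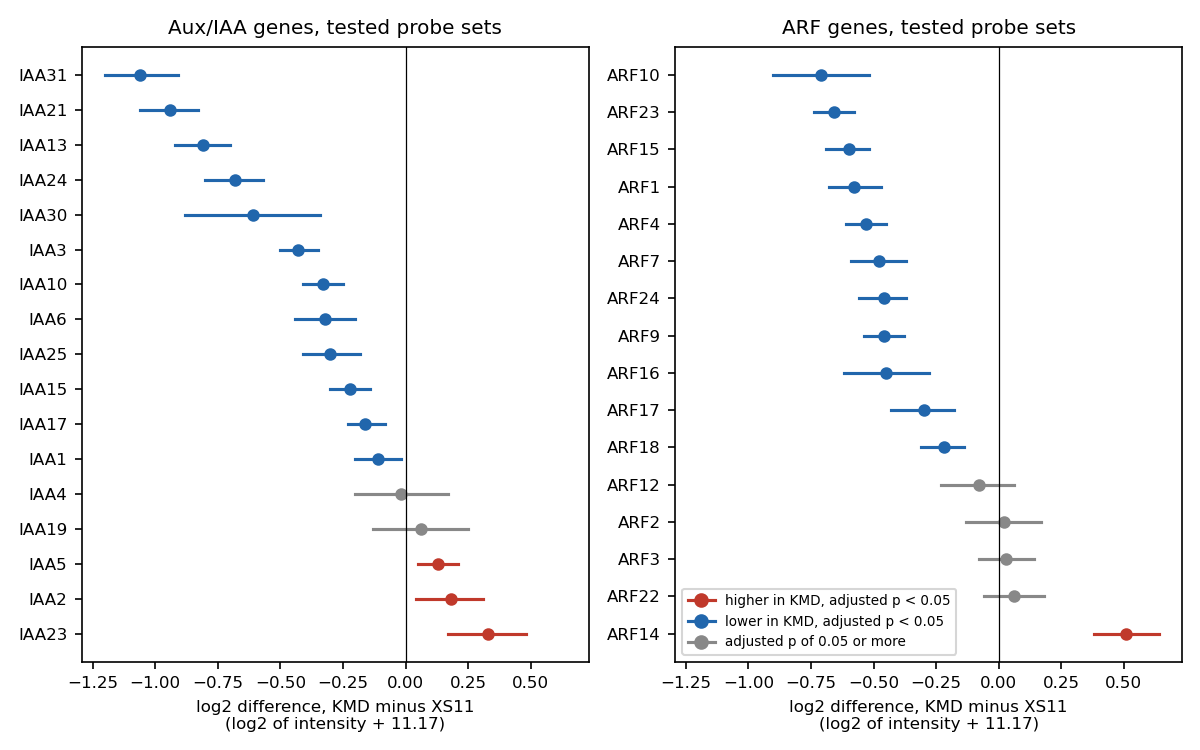
Log2 difference, KMD minus XS11, of the 17 tested Aux/IAA genes (left) and 16 tested ARF genes (right), each read by its brightest probe set; points are the fitted differences of 3 arrays against 3 and lines their 95% confidence intervals. Blue genes were called lower, red genes higher and grey genes not called; IAA31 at -1.06 and ARF10 at -0.71 fell most, while IAA23 at 0.33 and ARF14 at 0.51 rose most, and these rises turn negative when the arrays are centred on the spike-in controls.

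Among the Aux/IAA repressors, the largest fall was in IAA31. It read 61.3, 68.2 and 67.9 in the KMD arrays and 146, 149 and 151 in the XS11 arrays. Every KMD array was thus below every XS11 array, a difference of -1.06 (SE 0.07, limma adjusted p = 3.7e-08), or 2.08-fold lower on this scale. The other tested probe set of IAA31 was dimmer and gave -0.14 (adjusted p = 0.197), at 27.1 to 27.8 in KMD and 29.6 to 33.9 in XS11, again with no overlap. The size of the fall therefore rests on 1 of its 2 probe sets.

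IAA30 lies next to IAA31 in the RefSeq annotation, with no gene between them, and was also lower. It read 22.3, 30.8 and 16.9 in KMD and 38.9, 43.1 and 40.7 in XS11, a difference of -0.61 (SE 0.12, adjusted p = 0.00127). The KMD arrays varied widely for this dim gene but did not reach the XS11 arrays. Their mean of 23.3 was at the level of untested probe sets, such as that of IAA8 (26.7 in KMD and 26.3 in XS11). IAA30 thus passed the signal filter through its XS11 arrays, and its place among the lower genes carries that limit. IAA30 did not pass the test against a change of 1.2-fold (adjusted p = 0.0603). Nor did the called genes IAA1, IAA2, IAA5, IAA6, IAA10, IAA15, IAA17, IAA23 and IAA25. IAA11 and IAA12 form the other neighbouring pair of members, of which only IAA12 had a probe set, under the signal filter.

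IAA21, IAA13 and IAA24 followed IAA31 in size. IAA21 read 313, 332 and 371 in KMD and 663, 657 and 661 in XS11, a difference of -0.94 (SE 0.05, adjusted p = 1.5e-08). IAA13, which acts in lateral root initiation in rice, read 173, 189 and 186 against 335, 327 and 325, a difference of -0.81 (SE 0.05, adjusted p = 2.97e-08). IAA24 read 251, 233 and 222 against 376, 394 and 384, a difference of -0.68 (SE 0.05, adjusted p = 1.98e-07). In all 3 genes the arrays of a line lay close together and the lines were far apart, so that IAA21 stood in KMD at 1.92-fold under XS11, IAA13 at 1.76-fold and IAA24 at 1.61-fold on the same scale. Each rests on 1 probe set.

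Smaller falls were seen in brighter Aux/IAA probe sets. IAA3 read 1361, 1340 and 1338 in KMD and 1787, 1882 and 1772 in XS11, a difference of -0.43 (SE 0.03, adjusted p = 4.01e-07). Its other probe set was dim and gave 0.00 (adjusted p = 0.981), with arrays of both lines between 23.6 and 31.4. IAA10, whose protein is a target of a rice dwarf virus protein, read 793, 818 and 779 against 982, 995 and 1040, a difference of -0.33 (SE 0.04, adjusted p = 1.01e-05). The lines did not overlap in either gene's brightest probe set.

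The other lower Aux/IAA genes changed less. IAA6, linked to drought tolerance in rice, differed by -0.32, IAA25 by -0.30 and IAA15 by -0.22. IAA17 read 2788, 3050 and 2892 in KMD and 3252, 3238 and 3239 in XS11, a difference of -0.16 (SE 0.04, adjusted p = 0.00302). IAA1 read 1140, 1122 and 1045 against 1166, 1219 and 1184, a difference of only -0.11 (SE 0.04, adjusted p = 0.0441). Its call was lost without KMD replicate 3 (-0.07), XS11 replicate 2 (-0.09) or XS11 replicate 3 (-0.11), and after quantile normalization (-0.03). It was also lost with no filter (adjusted p = 0.0657), with median centring (0.0934) and with no intensity trend (0.157). The other probe set of IAA1 gave -0.08 (adjusted p = 0.58), and its arrays overlapped.

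Only 3 Aux/IAA genes were called higher in KMD, IAA23, IAA2 and IAA5, and all 3 turned negative when arrays were centred on the spike-in controls. IAA23, which maintains the quiescent centre of the rice root, read 118, 132 and 119 in KMD and 101, 95.7 and 90.0 in XS11, a difference of 0.33 (SE 0.07, adjusted p = 0.00205). Its other tested probe set gave 0.34 (adjusted p = 0.00333), and another one, under the filter, gave 0.23. The first of these probe sets is of the x_at type, which can take signal from related genes.

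IAA2 read 134, 145 and 150 against 122, 130 and 123, a difference of 0.18 (SE 0.06, adjusted p = 0.0387). That call was lost without replicate 2 (0.17) or 3 (0.15) of KMD, and without replicate 1 (0.16), 2 (0.20) or 3 (0.17) of XS11. It was also lost with no filter (adjusted p = 0.0533) and with median centring (0.0764). IAA5 read 1732, 1866 and 1731 against 1621, 1611 and 1626, a difference of 0.13 (SE 0.04, adjusted p = 0.0109). Its KMD arrays were all above the XS11 arrays, though by little, and the call was lost with median centring (adjusted p = 0.054) and with no intensity trend (adjusted p = 0.0833).

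The Aux/IAA genes that were tested and not called were IAA4 and IAA19. IAA4 differed by -0.02 (95% confidence interval -0.20 to 0.17) and IAA19 by 0.06 (-0.13 to 0.25), and the arrays of the lines overlapped in both. These intervals exclude a 2-fold change in the fitted values and leave room for a small one. Both genes were dim, at 28.1 to 33.4 for IAA4 and 36.2 to 44.5 for IAA19, beside array medians of 35.5 to 38.6. At such low signal the added 11.17 shrinks differences, so a 2-fold change of the transcript is not settled. IAA4 was read from an x_at probe set, and its other probe sets lay under the filter.

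A further 9 Aux/IAA genes, IAA7, IAA8, IAA9, IAA12, IAA14, IAA16, IAA18, IAA20 and IAA26, lay under the signal filter, with intensities from 4.78 to 30.8 in single arrays. All 9 had a slightly higher mean in KMD, by 0.01 to 0.24, in contrast to the tested genes. Of all 22854 probe sets under the filter 52.1% had a higher mean in KMD. Without the filter limma called 0 of the 9 (2 at an unadjusted p under 0.05), and for IAA7, IAA9 and IAA18 the lines did not overlap. Of all probe sets under the filter 4.53% were called, 10.1% had an unadjusted p under 0.05 and 15.5% did not overlap. Taking in these dim genes brought the median over all 26 Aux/IAA genes to -0.00, so the family's shift was seen in its brighter probe sets. Over the 21 tested probe sets of the family, in place of 1 per gene, the median was -0.16, with 12 lower and 4 higher.

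**Figure D3:**
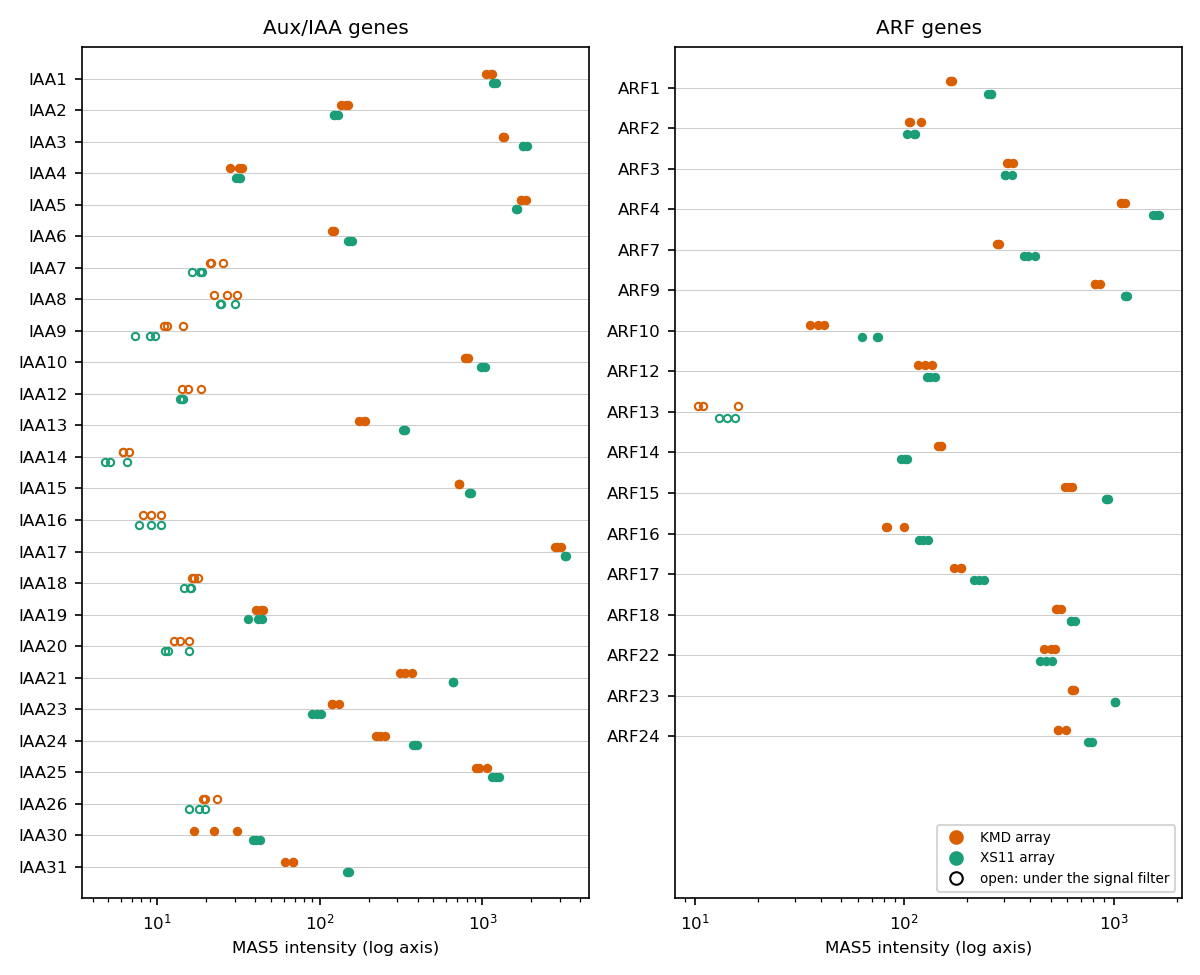
MAS5 intensity (horizontal log axis) of the brightest probe set of each of the 26 Aux/IAA genes (left) and 17 ARF genes (right) in every array; orange points are the 3 KMD arrays, green points the 3 XS11 arrays, and open points lie under the signal filter. The orange and green points of IAA31, IAA21 and IAA13 stand well apart, while those of ARF2, ARF3 and ARF22 overlap; levels of different genes cannot be compared on this axis.

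ARF proteins fall into a class of activators with a glutamine-rich middle region and a larger class that mostly represses. Only 3 activators had a probe set. ARF16, which acts in the response to phosphate starvation in rice, read 82.6, 99.3 and 81.4 in KMD and 123, 130 and 118 in XS11, a difference of -0.45 (adjusted p = 0.000419). ARF17 differed by -0.30 (adjusted p = 0.000815). ARF12, known for root elongation and iron response, differed by -0.08 (95% confidence interval -0.23 to 0.06) and was not called. Of the 13 tested ARF genes outside this class, 9 were lower, 1 higher and 3 not called, with a median of -0.46. These were 69.2% lower and 7.69% higher, against 33.0% and 23.2% of all genes by their brightest probe set. Of the 3 activators 66.7% were called, against 56.2% of all genes, and the difference between the classes was not tested.

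The largest fall among ARF genes was in ARF10, whose transcript is a target of the microRNA miR160. It read 41.4, 38.6 and 35.5 in KMD and 74.5, 73.7 and 62.7 in XS11, a difference of -0.71 (SE 0.09, adjusted p = 2.05e-05), or 1.64-fold lower on this scale. The lines did not overlap. ARF18 and ARF22 are targets of the same microRNA in rice, a grouping made after the values were seen. ARF18 differed by -0.22 (adjusted p = 0.000564), and ARF22 by 0.06 with overlapping arrays (95% confidence interval -0.06 to 0.18). The 3 measured genes of this kind thus ranged from a clear fall to no call.

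ARF23 and ARF24, whose proteins pair to control an actin-organising formin gene in rice, both fell. ARF23 read 634, 648 and 631 in KMD and 1013, 1018 and 1010 in XS11, a difference of -0.66 (SE 0.03, adjusted p = 6.03e-09). Its other probe set gave -0.68 (adjusted p = 5.55e-08). ARF24 read 544, 590 and 544 against 757, 791 and 777, a difference of -0.46 (adjusted p = 1.25e-06). All KMD arrays were below all XS11 arrays in the 3 probe sets. For ARF23 these are of the a_at and x_at types, and the x_at type can take signal from related genes.

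ARF2, ARF3, ARF14 and ARF15 make up the ETTIN-like group, whose transcripts are cut by trans-acting small RNAs known as tasiR-ARF, and they differed among themselves. ARF15 read 609, 635 and 582 in KMD and 921, 931 and 937 in XS11, a fall of -0.60 (SE 0.04, adjusted p = 5.82e-08). ARF14, given in full outside the naming rule because it was the only ARF gene called higher, read 145, 149 and 150 against 103, 101 and 96.7, a difference of 0.51 (SE 0.06, adjusted p = 1.19e-05). On the scale centred on the spike-ins ARF14 stood at -0.11 (adjusted p = 0.313). ARF2 (0.02, 95% confidence interval -0.13 to 0.17) and ARF3 (0.03, -0.08 to 0.14) were not called, and their arrays overlapped. This group, also formed after the values were seen, therefore held the only rise, 1 of the larger falls and a pair of genes that were not called.

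The other ARF genes were all lower or too dim to test. ARF1 read 168, 166 and 169 in KMD and 260, 258 and 250 in XS11, a difference of -0.58 (SE 0.05, adjusted p = 6.13e-07). ARF4 read 1088, 1137 and 1086 against 1601, 1643 and 1543, a difference of -0.53 (SE 0.04, adjusted p = 9.08e-08), and its other probe set gave -0.69 (adjusted p = 7.37e-08). In both genes the lines were far apart beside the spread within a line. ARF7 differed by -0.48 and ARF9 by -0.46, and ARF13 lay under the filter at 10.4 to 16.1. No ARF call was lost when any 1 array was left out. The calls of ARF16, ARF17 and ARF18 were lost in the test against a change of 1.2-fold.

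The partners and enzymes around the families were read from lists of 170 gene names sorted by role. Genes that these names did not reach are not described. By name 28 genes with a probe set were found, and 23 were tested. Of these 11 were lower, 5 higher and 7 not called, with a median of -0.10. As 33.0% of all genes were lower and 23.2% higher, 47.8% of these genes were lower and 21.7% higher. None of the 11 names of receptors and their partners matched a gene with a probe set, so TIR1/AFB is not described.

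The 7 listed names of co-repressors led to 2 genes with a probe set. Both fell, where 33.0% of all genes by their brightest probe set were lower. TPR2 encodes a TOPLESS-related protein of the kind that Aux/IAA proteins recruit, and its intensity of 661 ± 28.2 in KMD compared with 1014 ± 37.6 in XS11 (SD, n = 3 each), a difference of -0.61 (limma adjusted p = 9.78e-08). TPR3, of the same family, read 382 ± 17.2 against 539 ± 24.0, a difference of -0.49 (adjusted p = 2.56e-06).

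Genes that set the auxin level moved in both directions. TAA1, an aminotransferase at the start of the main synthesis route from tryptophan, rose from 154 ± 4.53 to 204 ± 8.66 (SD, n = 3 each), a difference of 0.38 (limma adjusted p = 9.14e-05). YUCCA1, of the flavin monooxygenases that complete that route, differed by 0.22 (adjusted p = 0.0534). DAO, a dioxygenase that oxidises auxin, rose from 149 ± 6.27 to 248 ± 9.71, a difference of 0.70 (adjusted p = 3.23e-07). The synthesis and the oxidation gene were thus both called higher, and on the spike-in scale TAA1 turned to -0.24 and DAO kept 0.07 without a call.

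GH3 enzymes link auxin or jasmonate to amino acids. Of 8 tested GH3 genes 0 rose, 4 fell and 4 were not called, so that 50.0% were called against 56.2% of all genes. GH3-2 and GH3-8, which conjugate auxin in rice, both differed by -0.63, with adjusted p of 4.15e-06 and 3.45e-05. GH3-5, also listed as the jasmonate-conjugating JAR1, differed by -0.33 (adjusted p = 4.54e-05). GH3-6 differed by -0.24 (adjusted p = 0.0285), a call lost without KMD replicate 1 (-0.25), 2 (-0.26) or 3 (-0.22), or without XS11 replicate 1 (-0.25) or 3 (-0.21).

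Of the 7 tested genes for conjugate hydrolysis and oxidation, 3 rose, DAO among them, 3 fell and 1 was not called; with so few genes the called share of 85.7% is given beside the 56.2% of all genes as a description. ILL8, named as an auxin-amino acid hydrolase, rose by 1.31 (SE 0.08, adjusted p = 1.66e-08), while ILL1 of the same family stood at -0.68 (adjusted p = 1.17e-06). ILL8 read 84.7, 86.0 and 91.5 in KMD and 29.1, 28.2 and 28.5 in XS11. Its XS11 values were near the level of untested probe sets, such as that of IAA8 (26.3 in XS11). ILL6 differed by -0.41, ILL5 by -0.27 and ILL2 by 0.38. Among 3 tested transport genes, PIN5A, of the short PIN proteins of the endoplasmic reticulum, was higher by 0.22 (adjusted p = 0.000821) and PIN3A lower at -0.28 (adjusted p = 0.00876). Of the 58 listed names of early auxin-induced SAUR genes, only SAUR39 matched a gene with a probe set. This gene, in rice a brake on auxin synthesis and transport, differed by -0.28 (adjusted p = 0.0117), a call lost without XS11 replicate 1 (-0.24). ILL2 and PIN5A turned negative with spike-in centring, and ILL8 stayed higher. In the test against a change of 1.2-fold the calls of TAA1, GH3-5, GH3-6, ILL2, ILL5, ILL6, PIN3A, PIN5A and SAUR39 were lost.

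**Figure D4:**
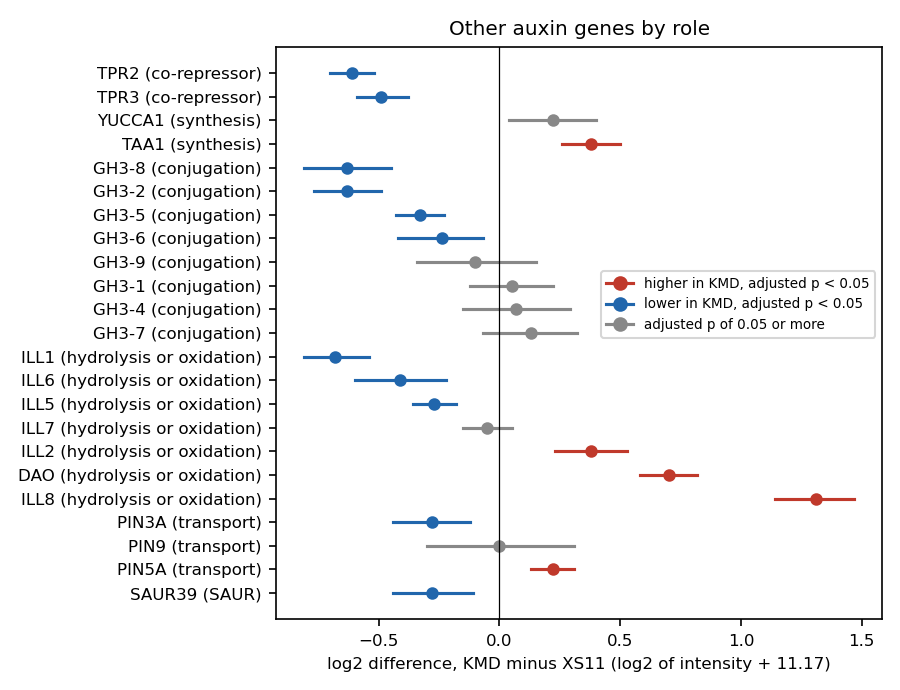
Log2 difference, KMD minus XS11, of the 23 tested auxin genes outside the families, sorted by role; points are fitted differences of 3 arrays against 3, lines 95% confidence intervals, and colours mark genes called lower (blue), higher (red) or not called (grey). Both co-repressor genes lie left of 0, TAA1 at 0.38 and DAO at 0.70 lie right of it, and ILL8 at 1.31 stands farthest out; on the spike-in scale TAA1, ILL2 and PIN5A turn negative.

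Some measures of the whole arrays moved with the lines. Each of the 36 probe sets for poly-A spike-in RNA gave more signal in KMD, with a mean log2 difference of 0.62. Centring on them moved the median of all tested probe sets to -0.62, the Aux/IAA median to -0.92 and the ARF median to -1.08. Relative to that shift the families stood at -0.30 and -0.46. These values could not change, because the centring subtracts the same value from every probe set of an array. For actin the ratio of 3' to 5' signal was 5.79 ± 0.136 in KMD against 4.62 ± 0.297 in the parent (SD, n = 3 each), and 3.48 ± 0.0541 against 2.75 ± 0.21 for GAPDH. Ubiquitin gave 1.17 ± 0.0248 against 0.985 ± 0.0273, and cyclophilin went the other way, with 0.906 ± 0.0591 against 1.06 ± 0.0486. Their part in the results was not tested.

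The 5 tested markers of the leaf were bright. RBCS, the small subunit of Rubisco, read 16012 ± 112 in KMD and 16111 ± 304 in XS11 (SD, n = 3 each). Of the 5 tested leaf markers 0 rose and 2 fell, and RBCS-1 lay under the filter at 13.6 to 20.8. In all, 2 of 5 leaf, 3 of 5 root and 4 of 7 meristem markers were called, against 56.2% of all genes (33.0% lower, 23.2% higher). The summed intensity of the 6 leaf markers was 50631 to 51407 in KMD and 53340 to 54263 in XS11. Of 5 tested root markers 0 rose and 3 fell, and the sum of all 8 was 880 to 887 against 1445 to 1530. The 3 that fell were NAAT1, at -1.03 and with most of that sum, the silicon channel gene LSI1 at -0.53 (180 to 298 over all arrays) and the iron transporter gene IRT1 at -0.50 (40.1 to 73.5). NAS2 (0.17) and PHT1-11 (-0.05) were not called, and LSI2, IRT2 and NAS1 lay under the filter. Of 7 tested markers of meristem and dividing cells 4 rose and 0 fell. The sum of all 12 was 581 to 599 in KMD and 469 to 496 in XS11. Those that rose were CYCD3-1 (0.57), CYCB1-3 (0.42), CDKB2-1 (0.32) and OSH43 (0.28), each by less than the mean spike-in difference of 0.62. CYCB1-3 read 22.5 to 26.9 in XS11, at the level of untested probe sets, and passed the signal filter through its KMD arrays (36.8 to 38.2). The meristem gene OSH1 lay under the filter at 19.4 to 28.2. Of 10 panicle, seed and anther markers 1 was tested and rose. Their part in the auxin results was not tested, and in such bulk samples fewer cells of a type and less RNA per cell cannot be told apart.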

How the data were processed

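Per the labels' protocols, 6 µg of Trizol-extracted leaf RNA per array went into biotinylated cRNA. The deposited values are intensity on a linear scale, 1 per probe set and array; the submitters' processing notes name MAS5, with version and scaling target not given in the sources used here. Median intensities per array ran from 35.5 to 38.6, and the number of arrays limits the precision. Detection calls and scanner files were not analysed here. Arrays were grouped by their titles, where they are named biological replicates; the number of plants is not stated, so p-values measure the spread between these samples.

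Probe sets were named through the platform annotation and the RefSeq table of assembly ASM3414082v1, in which 22436 probe sets had 1 gene, 95 several and 34850 none. Names matching another gene by synonym (ASP1, CRL4, TOM1) were dropped after the naming table was seen. No sequence is printed. Members, lists and alternatives were chosen with earlier results of these data known.

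The lines were compared with a two-sided limma test (lmFit, then eBayes with trend) on log2(intensity + 11.17), with Benjamini-Hochberg adjustment over 34404 probe sets; the 123 control probe sets were left out and all 64 reporter probe sets kept. The fit was run on simulated data with known changes. Every member is named; given in full are up to 8 Aux/IAA and 5 ARF genes with the largest called changes and no overlap, the brightest of each family, and members whose probe sets disagree. Of other lists, up to 4 called genes are named. Alternatives were pseudocounts of 1 and 18.5, quantile normalization, centring on medians or spike-ins, the upper 40% of signal or all probe sets, no trend, the replicate block, each array left out, other choices of probe set, and a test against 1.2-fold. Fits ran in R 4.3.3 with limma 3.58.1. Tables were made in Python 3.11.15 using pandas 2.3.3 over numpy 2.4.6, and plots with matplotlib 3.10.9.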

Additional observations from a re-analysis of the deposited data

How the results depend on the processing

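The counts of called genes stayed within 1.5 times of 15 Aux/IAA, 12 ARF and 16 other auxin genes under every alternative except the test against a change of 1.2-fold, which left 5 Aux/IAA and 7 other auxin genes (9 ARF). With each array left out in turn they ran from 13 to 15, stayed at 12, and ran from 14 to 16. The Aux/IAA median of -0.30 moved to -0.00 with no filter, -0.23 with quantile normalization, -0.92 with spike-in centring and -0.16 over all tested probe sets. The ARF median of -0.45 moved to -0.39 with quantile normalization and -1.08 with spike-in centring, and ran from -0.49 to -0.42 with an array left out. Leaving out probe sets of the s_at, x_at and a_at types, among them those of IAA17 and ARF23, gave medians of -0.32 for Aux/IAA and -0.45 for ARF. Of the calls, 12 Aux/IAA genes were lower and 3 higher; median centring gave 11 and 1, and spike-in centring 17 and 0. For ARF genes these were 11 and 1, the same with median centring, and 15 and 0 on the spike-in scale. There 95.7% of all tested probe sets were called and 99.0% of those calls were lower, so these counts lie near the background.

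With spike-in centring the sign turned in IAA2 (-0.44), IAA5 (-0.49), IAA19 (-0.56), IAA23 (-0.30, other probe set -0.28), ARF2 (-0.60, other probe set -0.59), ARF3 (-0.59), ARF14 (-0.11) and ARF22 (-0.56). It also turned in the dim probe set of IAA3 (-0.62), in TAA1 (-0.24), YUCCA1 (-0.40), GH3-1 (-0.57), GH3-4 (-0.55), GH3-7 (-0.50), ILL2 (-0.24), PIN5A (-0.40) and PIN9 (-0.62). That setting subtracts the spike-ins' own rise from every gene.

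The replicate numbers did not pair the arrays: deviations of same-numbered arrays from their line's mean correlated at -0.243, -0.008 and -0.255. With the replicate block 13 Aux/IAA, 12 ARF and 15 other auxin genes were called, with medians of -0.30 and -0.45. The calls lost with it were those of IAA1 (adjusted p = 0.0524), IAA2 (0.0701) and GH3-6 (0.0732).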
